A study of Mus musculus with 2 samples.

Results

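The ubiquitin-conjugating enzymes (Ube2 genes) and the ubiquitin-specific proteases (Usp genes) were followed in a pair of mouse tumour RNA libraries. Members were all genes of the deposited table whose symbol starts with Ube2 and a letter or with Usp and a digit. The rule left out Ube2c, at 12.5 TPM in FuOXP NP and 900 TPM in Empty NP, and Usp18, at 10.9 and 42.1 TPM. TPM is the share of a gene among all transcripts, scaled for gene length and for the library total. It gave 93 members, 38 Ube2 and 55 Usp genes, of 26601 named genes, and none of their symbols was repeated. The rule also takes 4 symbols that are neither E2 nor protease, namely Ube2cbp (an E2-binding protein gene), the pseudogene Ube2d-ps, the antisense gene Ube2uos and Usp6nl (a Rab GTPase activator gene).

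The tumours grew under the skin of BALB/c mice from CT26, a transplanted colon carcinoma line of that strain. The FuOXP NP group received nanoparticles that carried the chemotherapy drug FuOXP at 10 mg/kg, and the Empty NP group received the same kind of particle without drug. Both groups were labelled wild type, started at a tumour size of about 200 mm3, were injected into a vein 3 times at intervals of 5 days and were sampled 24 h after the last injection. Age and sex are not given in the labels. The design names 3 mice per group, the table holds 1 library for each, and whether tumours were pooled is not stated, so the differences below compare 1 library with 1 other, without replicates or p-values.

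Ubiquitin is passed along a chain of enzymes. An E1 enzyme activates it, an E2 enzyme (the Ube2 genes) carries it as a thioester on a cysteine, and an E3 ligase directs it to a lysine of the substrate. The E2 often decides which kind of ubiquitin chain is built, and some E2s carry SUMO, NEDD8 or ISG15, small relatives of ubiquitin, in its place. Ubiquitin-specific proteases, the largest family of deubiquitinases, cut ubiquitin off again and so oppose degradation by the proteasome or end a signal. In tumours the system sets the level of p53, of cyclins and of DNA repair proteins.

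Being scaled for gene length, TPM values can be set side by side between genes. A few genes took most of the FuOXP NP total: the top 20 entries of the table summed to 81.3% of it, and those of Empty NP to 47.2%. The named gene in the middle of the ranking was 2.71-fold lower in FuOXP NP, a log2 difference of -1.44 on the log2(TPM + 1) scale over the 9488 genes that averaged at least 1 TPM. The added 1 TPM understates the change of low genes. Differences below are given relative to this median gene unless a value is said to be as deposited. TPM steps allowed whole read numbers to be recovered for 66 of the 76 members above 0 in either library. Summed over the genes with an annotated length, the recovered reads came to 935267 in FuOXP NP and 448363 in Empty NP, far below the sequencing depth in the labels. Each step is taken here as 1 read, which no source states, and the intervals hold only if it is. Intervals are exact 95% Clopper-Pearson intervals on those reads and cover counting error only.

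Defining markers of the colon epithelium were nearly absent. Of 12 epithelial and colon markers, 2 were above 0 in FuOXP NP and 2 in Empty NP, with summed levels of 4.94 and 6.56 TPM, and Epcam, Cdh1 and Cdx2 were listed at 0 in both. Leukocyte markers summed to 216 TPM in FuOXP NP, with 7 of 10 above 0, and to 332 TPM in Empty NP, with 8 above 0. Cd3e was listed at 0 in both libraries. Skeletal muscle markers summed to 0.317 TPM in FuOXP NP, with 11 of 12 at 0, and to 127 TPM in Empty NP, with all 12 above 0. Erythroid markers summed to 75.0 TPM in FuOXP NP, with 4 of 7 above 0, and to 38.5 TPM in Empty NP, with 1 above 0. Within this list Alas2 stood at 7.94 TPM in FuOXP NP and 38.5 TPM in Empty NP, while the globin gene Hbb-bs stood at 57.1 TPM in FuOXP NP and at 0 TPM in Empty NP. In such whole-tumour RNA, fewer cells of a type and less RNA per cell cannot be told apart, and the part of these cells in the differences of the members was not tested.

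Both families as a whole stood where the median gene stood. Of the 93 members, 63 averaged at least 1 TPM, 13 were detected below that level and 17 were listed at 0 in both libraries. The members that passed had a median level of 1.62 TPM in FuOXP NP and 5.59 TPM in Empty NP, against 1.84 and 6.26 TPM over all named genes that passed. Their median difference was -0.01 relative to the median gene, with quartiles at -0.44 and 0.46, inside the quartiles of all genes at -0.57 and 0.60. Of the 63, 31 were on the higher side of the median gene and 32 on the lower side.

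Members beyond a 2-fold difference were no more frequent than among all genes. Past 2-fold on the higher side were 7 members, or 11.1%, beside 12.6% of all 9488 genes tested. Past 2-fold on the lower side were 3 members, or 4.76%, beside 12.2% of all genes. With Ube2c and Usp18 put back, 4 members were past it on the lower side. As deposited, 47 members were at least 2-fold lower in FuOXP NP, beside 69.8% of all genes, and 3 members (Usp17lb, Ube2b and Ube2s) were higher, beside 7.37% of all genes. A member had to reach 1 TPM on the mean to be counted, which favours genes high in either library, and the shares over all genes carry the same condition.

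**Figure D1:**
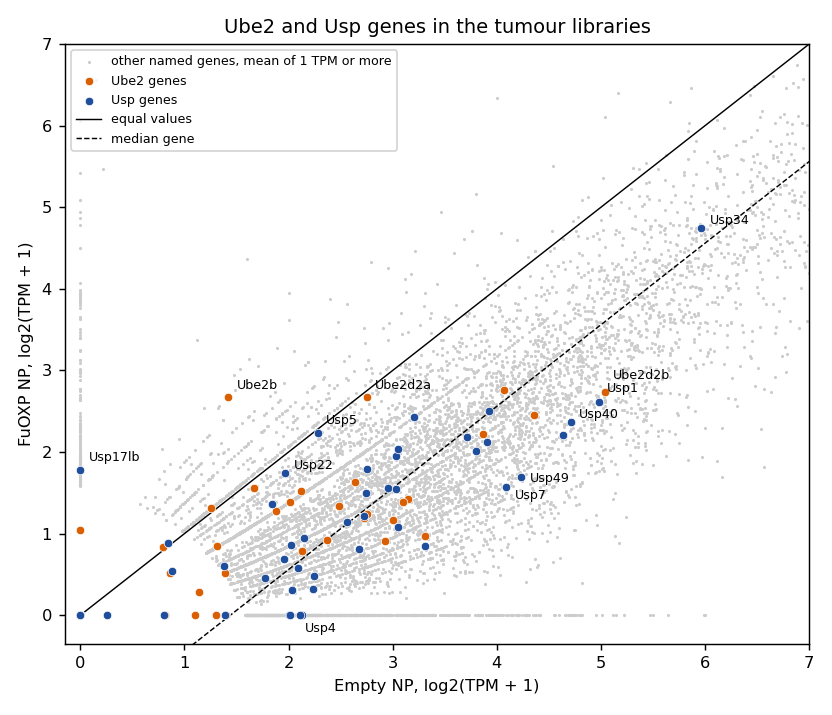
Levels in FuOXP NP (vertical axis) against Empty NP (horizontal axis), both as log2(TPM + 1), for Ube2 genes (orange), Usp genes (blue) and other named genes that averaged at least 1 TPM (grey). The solid line marks equal values and the dashed line the median gene at -1.44; most members lie along the dashed line, Usp34 is the most abundant, and genes above 7 on either axis lie outside the plot.

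The E2 genes and the proteases had similar medians over all members that passed, and differed more among well-read members. The 24 Ube2 genes that passed had a median of 0.12 relative to the median gene, with 13 above and 11 below it. The 39 Usp genes that passed had a median of -0.06, with 18 above and 21 below. The medians differed by 0.18 over all members that passed and by 0.91 over those with 20 reads or more, where the median was 3.23-fold lower for 4 Ube2 genes and 6.0-fold lower for 10 Usp genes. None of the 24 Ube2 genes was listed at 0 in FuOXP NP, and 4 of the 39 Usp genes were (Usp4, Usp11, Usp19 and Usp35), beside 13% of all genes that passed. Summed over all members, Ube2 transcripts made up 56.7 TPM in FuOXP NP and 178 TPM in Empty NP, or 0.00567% and 0.0178% of the total. This sum is without Ube2c, which alone stood at 12.5 TPM in FuOXP NP and 900 TPM in Empty NP. In Empty NP Ube2c was thus above the summed level of all Ube2 members. The Ube2 share and its difference between the libraries therefore depend on leaving Ube2c out. Usp transcripts made up 97.4 TPM in FuOXP NP and 362 TPM in Empty NP, or 0.00973% and 0.0361%. The Usp sum is without Usp18, at 10.9 TPM in FuOXP NP and 42.1 TPM in Empty NP.

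Past 2-fold on the higher side were 4 of the 24 Ube2 genes, or 16.7%, beside 12.6% of all genes. With Ube2c left out by the rule, none was past it on the lower side, beside 12.2% of all genes. They were Ube2b, Ube2s, Ube2d2a and Ube2w. On the protease side Usp17lb, Usp5 and Usp22 were past 2-fold on the higher side, and Usp49, Usp7 and Usp2 on the lower side. Each side held 7.69% of the 39 Usp genes, beside 12.6% of all genes on the higher side and 12.2% on the lower. Usp17lb rested on 2 reads in FuOXP NP and none in Empty NP, so no fold is given for it, and 14.9% of its 75-base stretches also occur in transcripts of other genes, among them Usp17la and Usp17le.

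**Figure D2:**
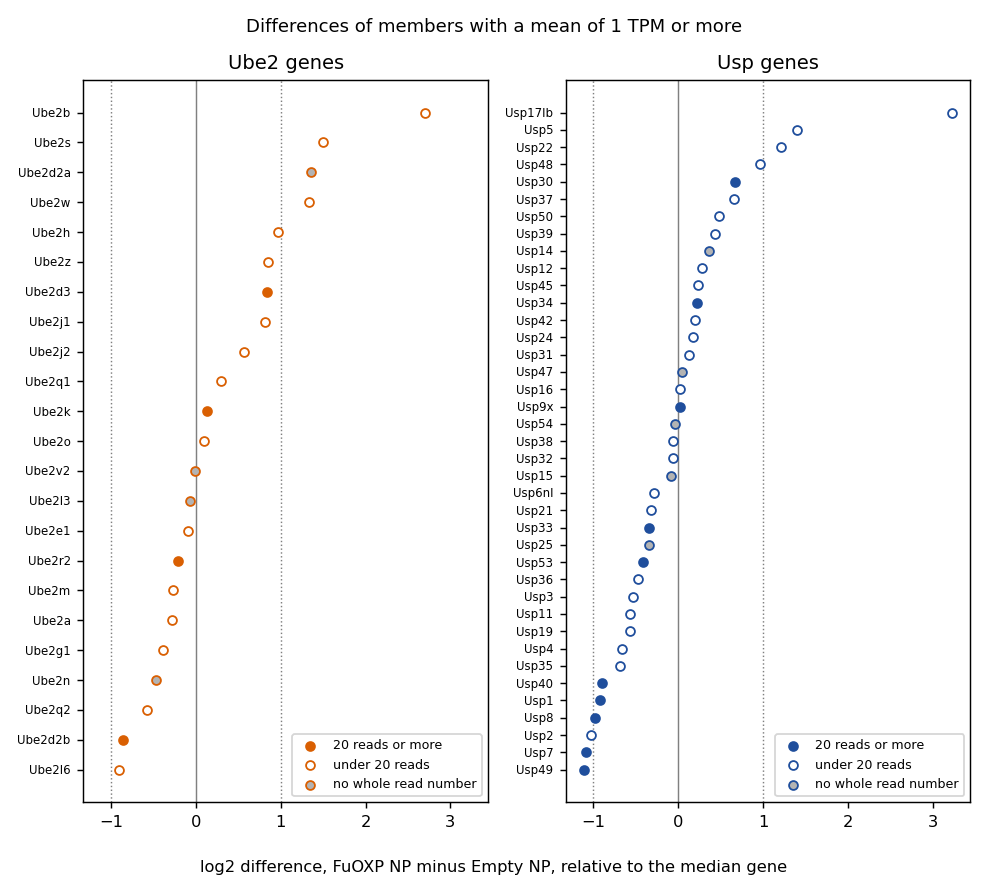
Log2 difference of each member that averaged at least 1 TPM, FuOXP NP minus Empty NP relative to the median gene (horizontal axis), for Ube2 genes and Usp genes, each ranked, without 1 Ube2 gene that is not reported here. Filled points rest on 20 or more recovered reads, open points on fewer, grey points have no whole read number, and dotted lines mark 2-fold; of the 7 points beyond the right-hand line none is filled.

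Read depth decided which members could be placed with any precision. Of the 63, 14 had at least 20 whole reads over both libraries, 40 had fewer and 9 gave no whole read number. The typical gene with 50 reads or more was 3.19-fold lower in FuOXP NP, the median of 1045 genes without a pseudocount, and intervals were set against it. Of the 14, 3 had an interval wholly on the more lowered side, or 21.4%, beside 17.6% of 2405 genes with 20 reads or more. On the less lowered side lay 1, or 7.14%, beside 13.1%. Both shares were near those of all genes.

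Usp34 (chromosome 11, 23306895 to 23490560, plus strand, GRCm38), a very large protease known for acting on axin in WNT signalling, was by far the most abundant member. It stood at 25.8 TPM in FuOXP NP and 61.4 TPM in Empty NP, on 250 and 318 reads. The ratio was 2.37-fold lower (2.01 to 2.81), less than the 3.19-fold of the typical gene, and it was the member with its whole interval on that side. Its exons share 2137 bases with those of Ahsa2, and 10.9% of its 75-base stretches occur in transcripts of other genes. How reads on such bases were counted is not stated, so there the genes cannot be told apart.

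Usp7, Usp40 and Usp49 had intervals wholly on the more lowered side. Usp7 (chromosome 16, 8689595 to 8792308, minus strand), which removes ubiquitin from MDM2 and p53, stood at 1.97 TPM in FuOXP NP and 16.1 TPM in Empty NP, on 8 and 35 reads. It was 8.17-fold lower (3.72 to 20.4), and its exons overlap no other annotated gene. Usp40 (chromosome 1, 87945119 to 88008551, minus strand), a little-studied protease, stood at 4.18 TPM in FuOXP NP and 25.2 TPM in Empty NP, on 26 and 84 reads, and was 6.03-fold lower (3.84 to 9.76). Its exons share 62 bases with those of Dgkd. Usp49 (chromosome 17, 47630690 to 47686738, plus strand), a histone H2B deubiquitinase, stood at 2.22 TPM in FuOXP NP and 17.8 TPM in Empty NP, on 10 and 43 reads, and was 8.03-fold lower (3.97 to 17.9). As 48.5% of its 75-base stretches also occur in transcripts of Tomm6 and Gm20517, its value cannot be told apart from theirs.

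Usp1, Usp8 and Usp53 were also more lowered than the typical gene, with intervals that still held its 3.19-fold. Usp1, which works on FANCD2 and PCNA in DNA repair, stood at 5.11 TPM in FuOXP NP and 30.5 TPM in Empty NP, 5.97-fold lower (2.87 to 13.6). Usp8, which recycles receptors at endosomes, stood at 3.64 TPM in FuOXP NP and 23.8 TPM in Empty NP, 6.53-fold lower (2.90 to 16.6). Usp53, a member found at cell junctions, stood at 0.759 TPM in FuOXP NP and 5.38 TPM in Empty NP, 7.09-fold lower (2.56 to 24.3). On the other side, the E2 gene Ube2d3 stood at 1.87 TPM in FuOXP NP and 3.34 TPM in Empty NP, on 24 and 23 reads, 1.79-fold lower (0.965 to 3.31). The mitochondrial protease gene Usp30 stood at 4.40 TPM in FuOXP NP and 8.22 TPM in Empty NP, on 14 reads in each, 1.87-fold lower (0.825 to 4.22). Both intervals reached the typical value.

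**Figure D3:**
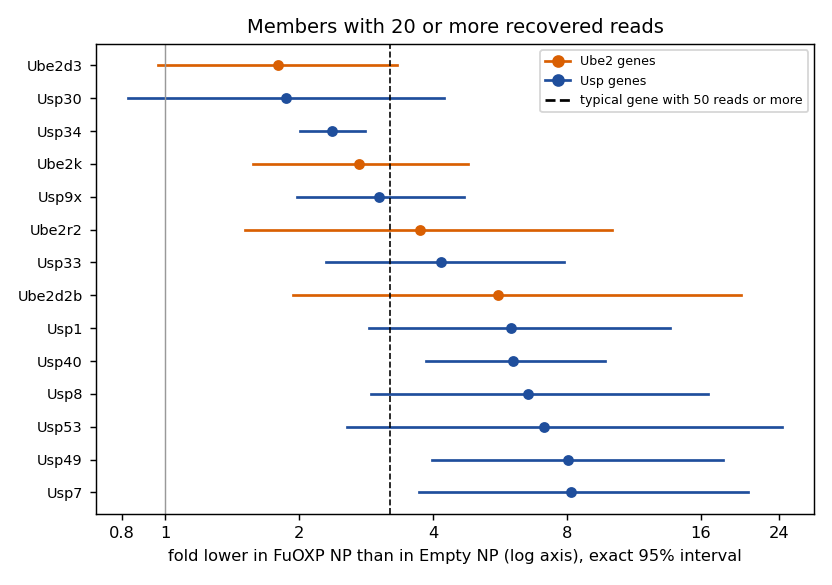
Fold by which each of the 14 members with 20 or more recovered reads was lower in FuOXP NP than in Empty NP (log axis), with exact 95% counting intervals, for Ube2 genes (orange) and Usp genes (blue). The dashed line is the typical gene at 3.19-fold; Usp34 lies wholly left of it and Usp40, Usp49 and Usp7 wholly right of it.

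Pooled reads showed how far Usp34 carried its family. All Usp genes with whole read numbers held 463 reads in FuOXP NP and 843 in Empty NP, 3.40-fold lower (3.03 to 3.82). Without Usp34 they held 213 and 525 reads, 4.60-fold lower (3.92 to 5.42). The Ube2 genes, with Ube2c left out, held 116 reads in FuOXP NP and 175 in Empty NP, 2.82-fold lower (2.21 to 3.59). All named genes of the same depth range, at most 600 reads each, pooled to 3.29-fold lower. The figure without Usp34 was computed after its value was seen, and it removes the member that was lowered least among the well-read proteases apart from Usp30.

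The promoters of 4 of these genes are shown as examples of less and more lowered members. They were chosen after their values were seen, and Usp49 is left out for its shared exons. The sequences are the 250 bases before the RefSeq start (GRCm38.p6), 5′ to 3′ on the strand of the gene. Usp34 (chr11:23306645-23306894, plus strand) and Ube2d3 (chr3:135437982-135438231, plus strand) are shown as less lowered members, Usp7 (chr16:8738343-8738592, minus strand) and Usp40 (chr1:88008552-88008801, minus strand) as more lowered ones. Capitals mark any of 5 motifs, searched on both strands: the GC box GGGCGG, the ETS motif CCGGAAG, the CCAAT box CCAAT, the TATA box TATAAA and the cell cycle element CHR, TTTGAA.
Usp34: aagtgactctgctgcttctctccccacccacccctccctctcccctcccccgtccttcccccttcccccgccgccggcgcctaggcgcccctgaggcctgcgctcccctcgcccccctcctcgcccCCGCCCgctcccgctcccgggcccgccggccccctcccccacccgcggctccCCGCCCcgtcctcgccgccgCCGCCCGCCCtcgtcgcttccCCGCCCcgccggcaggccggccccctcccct
Ube2d3: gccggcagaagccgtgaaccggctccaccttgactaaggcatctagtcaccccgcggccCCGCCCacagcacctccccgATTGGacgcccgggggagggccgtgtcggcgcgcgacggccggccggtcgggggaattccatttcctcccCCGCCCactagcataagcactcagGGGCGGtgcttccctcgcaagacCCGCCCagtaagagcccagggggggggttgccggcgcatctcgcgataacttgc
Usp7: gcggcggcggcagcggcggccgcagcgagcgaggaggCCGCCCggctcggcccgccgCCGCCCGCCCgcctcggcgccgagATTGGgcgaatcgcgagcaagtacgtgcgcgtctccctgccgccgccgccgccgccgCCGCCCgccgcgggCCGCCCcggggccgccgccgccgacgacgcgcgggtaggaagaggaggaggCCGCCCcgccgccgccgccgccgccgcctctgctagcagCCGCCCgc
Usp40: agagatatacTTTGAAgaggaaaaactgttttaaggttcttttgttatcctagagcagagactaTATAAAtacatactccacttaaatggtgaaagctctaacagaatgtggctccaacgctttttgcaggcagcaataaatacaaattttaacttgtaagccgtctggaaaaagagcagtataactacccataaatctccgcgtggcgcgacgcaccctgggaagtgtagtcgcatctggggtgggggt
The windows of Usp34, Ube2d3 and Usp7 held 5, 4 and 7 GC boxes, and those of Ube2d3 and Usp7 also 1 CCAAT box each. The window of Usp40 held no GC box, 1 TATA box and 1 CHR. Over the 74 members with an entry, 43 held a GC box, or 58.1%, beside 33.0% of all 27025 promoters, and 12 held the ETS motif, or 16.2%, beside 7.11%. The CCAAT box was in 29.7% of the members' windows and 34.3% of all. The CHR was in 10.8% and 16.2%, and the TATA box in 10.8% and 12.9%. The GC boxes stood in the windows of members at both ends of the comparison. These are matches of letters and not binding sites.

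The E2s of broad use, which serve many ligases, did not move together. Ube2d2a stood at 5.38 TPM in FuOXP NP and 5.74 TPM in Empty NP, a difference of 1.36 relative to the median gene. Its close paralogue Ube2d2b stood at 5.68 TPM in FuOXP NP and 31.8 TPM in Empty NP, on 5 and 15 reads, 5.60-fold lower (1.93 to 19.7). The level of the paralogues was thus nearly equal in FuOXP NP and Ube2d2b was the higher in Empty NP. Of the 75-base stretches of Ube2d2a 3.64% occur in another gene and of those of Ube2d2b 0%, so reads of this length can mostly be told apart. No whole read number came out for Ube2d2a. Ube2l3, the E2 of HECT and RBR ligases, stood at 1.36 TPM in FuOXP NP and 5.72 TPM in Empty NP. Ube2e1 stood at 1.28 and 5.59 TPM, and the same list held Ube2d1, Ube2e2 and Ube2e3 at 1 to 2 reads in Empty NP.

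E2s that build lysine 48-linked chains, the usual signal for degradation, followed the median gene. Ube2k, which extends such chains without a ligase, stood at 5.80 TPM in FuOXP NP and 15.8 TPM in Empty NP, on 24 and 35 reads, 2.72-fold lower (1.57 to 4.78). Ube2r2, an E2 of cullin ligases, stood at 3.64 TPM in FuOXP NP and 13.6 TPM in Empty NP, 3.73-fold lower (1.51 to 10.1). Ube2g1 was at 1.25 and 7.0 TPM, on 3 and 9 reads. Ube2h, which works with the CTLH ligase, was at 0.798 and 1.49 TPM on 2 reads each. The list had a median of -0.04 relative to the median gene over 4 members, 2 on each side, and its pooled reads were 3.18-fold lower (2.09 to 4.91).

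The E2 of lysine 63-linked chains is a pair. Ube2n, its active subunit in DNA damage and NF-kappaB signalling, stood at 4.46 TPM in FuOXP NP and 19.4 TPM in Empty NP, -0.46 relative to the median gene. Its inactive partner Ube2v2 stood at 0.893 TPM in FuOXP NP and 4.17 TPM in Empty NP, -0.01 relative to the median gene. The other partner gene, Ube2v1, was listed at 0 in both libraries, and 60.7% of its 75-base stretches occur in transcripts of other genes, first among them Gm20431. Whether its reads were assigned elsewhere was not tested.

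Of the E2s of chromatin and DNA repair, the homologues of yeast Rad6 lay on opposite sides of the median gene, with intervals that overlapped. Ube2b stood at 5.38 TPM in FuOXP NP and 1.68 TPM in Empty NP, on 6 reads and 1 read, the highest difference of any E2 at 2.69. The ratio was 3.21-fold higher (0.390 to 148), an interval that includes equal levels. Ube2a stood at 1.68 TPM in FuOXP NP and 7.84 TPM in Empty NP, on 2 and 5 reads, at -0.28. Its ratio of FuOXP NP to Empty NP was 0.214 (0.0204 to 1.31), which also includes equal levels. Ube2t, the E2 of the Fanconi anaemia pathway, stood at 0.790 and 0.737 TPM on 2 reads and 1 read. Ube2s, which extends lysine 11-linked chains with the anaphase promoting complex, stood at 1.48 TPM in FuOXP NP and 1.39 TPM in Empty NP on 4 and 2 reads, and its exons overlap those of the ribosomal protein gene Rpl28.

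With Ube2c left out by the rule, the ISG15 enzyme Ube2l6 was the lowest of the 24 Ube2 genes that passed, relative to the median gene. It stood at 0.956 TPM in FuOXP NP and 8.92 TPM in Empty NP, on 1 and 5 reads, at -0.90. Isg15 and Uba7 were looked up after these values were seen. Isg15 itself stood at 5.05 and 9.42 TPM on 2 reads each, and its E1 gene Uba7 at 0.285 TPM in FuOXP NP and 3.73 TPM in Empty NP on 1 and 7 reads. The NEDD8 enzyme Ube2m, which switches on cullin ligases, stood at 1.62 TPM in FuOXP NP and 7.55 TPM in Empty NP, on 2 and 5 reads, at -0.27, and Ube2f at 0.216 and 1.21 TPM.

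The E2s of the endoplasmic reticulum were Ube2j1 at 1.62 TPM in FuOXP NP and 3.03 TPM in Empty NP, on 3 reads each, and Ube2j2 at 0.433 and 1.62 TPM, on 1 and 2 reads. Both lay above the median gene, at 0.82 and 0.57, and Ube2g2 of the same pathway was listed at 0 in FuOXP NP with 1 read in Empty NP. Without the added 1 TPM, over genes above 0 in both libraries, Ube2j1 lay at 0.85 and Ube2j2 at -0.15. The sign of Ube2j2 thus rests on that choice. Of the remaining E2s, Ube2q2 stood at 0.886 TPM in FuOXP NP and 6.62 TPM in Empty NP, on 2 and 8 reads, at -0.57. Ube2w, which modifies the N-terminus of proteins, stood at 1.93 TPM in FuOXP NP and 2.17 TPM in Empty NP on 5 and 3 reads, at 1.33. Ube2z, the partner of the second ubiquitin E1 Uba6, stood at 1.43 and 2.67 TPM on 3 reads each, at 0.85, and Ube2q1 at 1.54 and 4.60 TPM, at 0.30. Ube2o was at 0.722 and 3.37 TPM. Ube2u, Ube2ql1, Ube2dnl1 and Ube2dnl2 were listed at 0 in both libraries.

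Proteases of the DNA damage response held both low and middling values. On this list, Usp7 and Usp1 lay at -1.08 and -0.93 relative to the median gene, while Usp47, a protease of DNA polymerase beta, lay at 0.04 with 1.95 TPM in FuOXP NP and 6.76 TPM in Empty NP. Usp48 lay at 0.97, with 1.58 TPM in FuOXP NP and 2.57 TPM in Empty NP on 8 and 7 reads. Usp45 lay at 0.23, and Usp10, Usp28 and Usp29 were under 1 TPM on the mean. In pooled whole reads the list had 29 in FuOXP NP and 83 in Empty NP, 5.34-fold lower (3.46 to 8.46), and most of these reads came from Usp1 with 10 and 32 and Usp7 with 8 and 35. By the median over 5 members the list stood at 0.04, and at -0.15 without the added 1 TPM and -0.44 without members whose exons overlap other genes, so the sign of its median is not settled.

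Proteases that act on histones had a median below the median gene, but its sign is not settled. The median of 5 members was -0.32, 2 above and 3 below, and 0.04 with a pseudocount of 5 TPM. The pooled reads were 27 in FuOXP NP and 80 in Empty NP, 5.53-fold lower (3.54 to 8.90). Of these reads Usp49 with its shared exons held 10 and 43, so the pooled value rests in large part on a gene that cannot be told apart from others. Usp3 stood at 1.11 TPM in FuOXP NP and 7.28 TPM in Empty NP, on 4 and 14 reads, at -0.53. Usp16 stood at 1.21 TPM in FuOXP NP and 4.90 TPM in Empty NP, on 6 and 13 reads, at 0.02. Usp22, the protease of the SAGA coactivator, stood at 2.34 TPM in FuOXP NP and 2.92 TPM in Empty NP, on 6 and 4 reads, at 1.21, and its relative Usp51 had 1 read in Empty NP. Usp27x and Usp44 were listed at 0 in both libraries. Usp21 stood at 0.401 and 3.74 TPM.

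Of the proteases of the proteasome and of free ubiquitin chains, Usp5 and Usp14 passed, and neither was shown to differ from the typical gene. Usp5, which takes apart unanchored chains, stood at 3.72 TPM in FuOXP NP and 3.85 TPM in Empty NP, on 9 and 5 reads, at 1.40. It was 1.04-fold lower (0.273 to 3.45), an interval that held the 3.19-fold of the typical gene. Usp14, which edits chains at the proteasome, stood at 2.87 TPM in FuOXP NP and 7.15 TPM in Empty NP, at 0.37. No whole read number came out for Usp14, and 25.1% of its 75-base stretches occur in transcripts of Thoc1, with which it shares exon bases. Usp13, the paralogue of Usp5, was listed at 0 in both.

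Of the paralogues Usp4, Usp11 and Usp15, only Usp15 was above 0 in both libraries. Usp15, a protease of TGF-beta receptor signalling, stood at 3.55 TPM in FuOXP NP and 12.1 TPM in Empty NP, at -0.09. Usp4 was listed at 0 in FuOXP NP and stood at 3.30 TPM in Empty NP on 8 reads. The exact interval of its reads began at 3.187-fold lower and so still held the 3.192-fold of the typical gene. Usp11 was listed at 0 in FuOXP NP and at 3.01 TPM in Empty NP on 4 reads, and its interval began at 1.23-fold lower. A gene at 0 in FuOXP NP passes 1 TPM on the mean through Empty NP alone, which sets it below the median gene, so the side on which these genes lie is no finding.

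Proteases of membranes and organelles ranged from Usp8 at -0.98 to Usp30 at 0.67. Usp33, which acts on receptors and at centrosomes, stood at 3.35 TPM in FuOXP NP and 14.0 TPM in Empty NP, on 17 and 38 reads, 4.17-fold lower (2.30 to 7.88). Usp19, which is anchored in the endoplasmic reticulum in one of its isoforms, was listed at 0 in FuOXP NP and at 3.03 TPM in Empty NP on 6 reads, and its interval began at 2.2-fold lower. Usp32 stood at 0.497 and 3.25 TPM and Usp20 at 0.846 and 0.790 TPM. The list had 45 reads in FuOXP NP and 95 in Empty NP, 3.94-fold lower (2.74 to 5.75).

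Of the large proteases related to Usp9x, 3 were detected. Usp9x (X chromosome), which stabilises many substrates including MCL1, stood at 4.69 TPM in FuOXP NP and 14.2 TPM in Empty NP, on 37 and 60 reads, 3.03-fold lower (1.98 to 4.69). Usp24 stood at 0.618 TPM in FuOXP NP and 2.88 TPM in Empty NP, on 4 and 10 reads, 4.67-fold lower (1.35 to 20.4). On the log2(TPM + 1) scale Usp9x, Usp24 and Usp34 lay at 0.02, 0.18 and 0.22 relative to the median gene. Without the added 1 TPM, over genes above 0 in both libraries, they lay at 0.15, -0.47 and 0.50, so the sign of Usp24 rests on that choice. Usp9y was listed at 0 in both libraries.

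Among proteases tied to RNA, Usp39, a splicing factor without protease activity, stood at 3.12 TPM in FuOXP NP and 7.28 TPM in Empty NP, on 4 and 5 reads, at 0.43. Usp36, the protease of the nucleolus, stood at 0.248 TPM in FuOXP NP and 3.71 TPM in Empty NP, on 1 and 8 reads, at -0.47. Usp42 stood at 1.83 and 5.71 TPM. Usp12, which like Usp1 needs the activator WDR48, stood at 0.822 TPM in FuOXP NP and 3.07 TPM in Empty NP, and its paralogue Usp46 was listed at 0 in both. Usp54, a relative of Usp53, stood at 1.92 TPM in FuOXP NP and 7.19 TPM in Empty NP, at -0.04. Usp25 was at 3.03 and 12.9 TPM, at -0.35. Usp2, a protease of cyclin D1 and of the clock, stood at 0.794 TPM in FuOXP NP and 8.89 TPM in Empty NP on 2 and 12 reads, 11.2-fold lower (2.49 to 103). Usp35, on none of the role lists, was listed at 0 in FuOXP NP and at 3.37 TPM in Empty NP on 5 reads, and its interval began at 1.71-fold lower. Of the other members on no role list, Usp31, Usp37, Usp38, Usp50 and Usp6nl lay between -0.29 and 0.66 on 1 to 9 reads a library, and Ube2cbp and Ube2d-ps were below 1 TPM on the mean.

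Members were also set beside all genes of their own level, as a description without a test. At 10 TPM or more the median difference was -0.88 over 8 members, of which 6 lay under the -0.22 of all 2426 genes. These 6 were Usp1, Usp8, Usp40, Usp49, Ube2d2b and Ube2n, and the others were Usp34 and Ube2k. Without the added 1 TPM the values at this level were -0.78 over the 8 members and 0.01 over all 2381 genes above 0 in both libraries. Between 5 and 10 TPM the median was -0.03 over 10 members and -0.19 over all genes, and between 2 and 5 TPM it was 0.03 over 30 members and 0.08 over all. Between 1 and 2 TPM it was 0.12 over 15 members and 0.32 over all 2294 genes. With the added 1 TPM the medians over all genes thus declined steadily with level. Without it, and only over genes above 0 in both libraries, they were 0.26, 0.00, -0.15 and 0.01 from low to high level. Those of the members were -0.31, -0.21, 0.06 and -0.78. As both the added 1 TPM and the set of genes changed, which of them altered the decline was not tested.

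**Figure D4:**
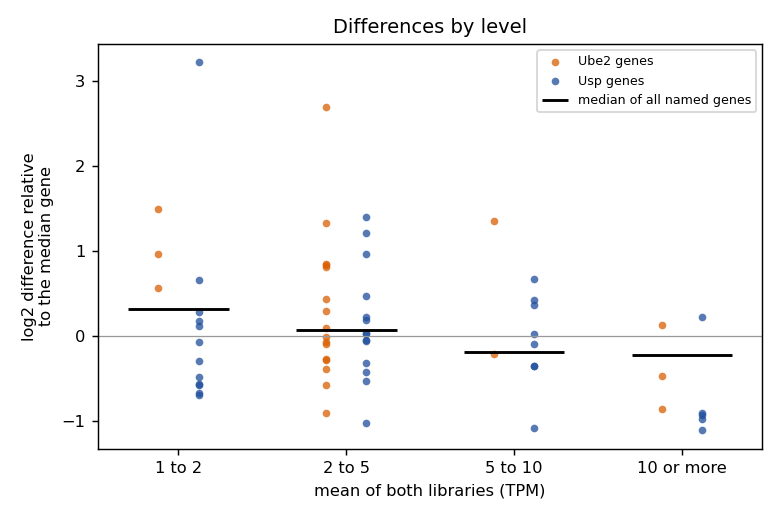
Log2 difference relative to the median gene (vertical axis) of Ube2 genes (orange) and Usp genes (blue) that averaged at least 1 TPM, by the mean level of both libraries in TPM (horizontal axis). Black bars are the medians of all named genes of each level, from 0.32 at the lowest to -0.22 at the highest. Without the added 1 TPM, over genes above 0 in both libraries, the decline did not reach the highest level. At 10 TPM or more most members lie below the bar.

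Other genes of the pathway gave the setting. All 4 ubiquitin precursor genes lay above the median gene, with a median of 0.65 against 0 for all genes. Rps27a, which encodes ubiquitin fused to a ribosomal protein, stood at 31.9 TPM in FuOXP NP and 41.5 TPM in Empty NP, on 33 and 23 reads. The polyubiquitin gene Ubb stood at 19.4 TPM in FuOXP NP and 38.3 TPM in Empty NP, on 17 and 18 reads. Exons of Rps27a overlap those of Clhc1.

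Of 9 E1 genes, 7 lay above the median gene, with a median of 0.49. Uba1, the main ubiquitin E1, stood at 5.54 TPM in FuOXP NP and 18.5 TPM in Empty NP, on 14 and 25 reads, at -0.13. Atg7, the E1 of autophagy, stood at 47.1 TPM in FuOXP NP and 80.2 TPM in Empty NP, on 172 and 157 reads, 1.70-fold lower (1.36 to 2.13).

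The other deubiquitinases had a median of -0.10 over 26 genes that passed, 13 on each side, with 4 past 2-fold on the higher side, or 15.4% beside 12.6% of all genes, and 3 on the lower, or 11.5% beside 12.2%. Their median was 0.35 over genes above 0 in both libraries without the added 1 TPM, and 0.36 with 20 reads or more, so its sign is not settled. Zranb1, a protease of atypical chains, stood at 182 TPM in FuOXP NP and 405 TPM in Empty NP, and its exons overlap those of 1500002F19Rik. Otub2 stood at 5.16 TPM in FuOXP NP and 36.6 TPM in Empty NP, on 10 and 38 reads, 7.09-fold lower (3.47 to 16). Mindy2 stood at 4.25 TPM in FuOXP NP and 29.1 TPM in Empty NP.

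Ligases and partner proteins differed by list. HECT ligases had a median of -0.06 over 19 genes, and Wwp1 stood at 17.1 TPM in FuOXP NP and 45.3 TPM in Empty NP. On the log2(TPM + 1) scale none of the 19 was beyond 2-fold, beside 12.6% of all genes on the higher side and 12.2% on the lower. Their median was -0.37 over genes above 0 in both libraries without the added 1 TPM, and -0.43 with 20 reads or more. By recovered reads, without the added 1 TPM, the list held intervals wholly on the more lowered and wholly on the less lowered side of the typical gene. The cullin-RING core had a median of 0.05 over 13 genes, 1 of them 2-fold above and 1 below, or 7.69% each. RBR ligases had a median of 0.44 over 8 genes, 6 above and 2 below, ubiquitin-like proteins -0.14 over 7, and USP partner proteins -0.24 over 9. Wdr48, the activator of Usp1, Usp12 and Usp46, stood at 7.99 TPM in FuOXP NP and 29.8 TPM in Empty NP, at -0.34. G3bp2, a relative of the USP10 partner G3BP1, stood at 3.08 TPM in FuOXP NP and 13.6 TPM in Empty NP, on 14 and 33 reads, at -0.39. Of the 9 partners that passed, 3 lay above the median gene and 6 below.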

How the data were processed

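The authors deposited 1 table of TPM values per gene with a column for each library. Per the submitters' processing notes, STAR 2.6.1a, Cufflinks 2.2.1, Cuffdiff and GRCm38 were used; for the annotation and the treatment of overlapping genes, the sources used here give nothing. Of 53927 entries, 22240 had no symbol and 26 had a date in its place, and repeats of a symbol were reduced to the highest, which left 26601 genes. Differences are log2((FuOXP NP + 1)/(Empty NP + 1)) minus the median over genes that averaged at least 1 TPM, and a member past 2-fold was counted without a test, as each group had 1 library.

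Whole read numbers were recovered from TPM steps and GENCODE exon lengths, with 83.7% of 8389 low genes whole within 0.05 reads. Members without whole numbers have no interval. The calculation was also run on simulated reads built with the same step, which cannot test whether 1 step is 1 sequenced read. Python 3.11.15, numpy 2.4.6, pandas 2.3.3, scipy 1.17.1 and matplotlib 3.10.9 were used.

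The members and lists were chosen with earlier results of these data known. Named members were the 8 highest and 8 lowest at 5 TPM or more, the 6 most abundant of each family, and the 3 most abundant, the highest and the lowest of each role list; the other members are given to account for them, and up to 3 genes per pathway list by level. RefSeq promoters were matched by symbol. Values of 3 genes on these lists are not reported here, while counts and sums include them.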

Additional observations from a re-analysis of the deposited data

How the results depend on the processing

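No paired analysis was possible because each group had 1 library, and for the same reason none could be left out. The 7 members past 2-fold on the higher side became 2 with a pseudocount of 5 TPM, 2 as deposited, 3 with no filter, 1 at a mean of 5 TPM or more, 4 without members whose exons overlap other genes and 0 with 20 reads or more. The 3 on the lower side became 11 with a pseudocount of 0.1 TPM, 47 as deposited, 21 after the 20 most abundant entries were removed and the rest rescaled, 51 with no filter, 0 at 5 TPM or more, 1 without overlaps, and 9 over genes above 0 in both libraries with no pseudocount. The last choice was made after seeing the data. As deposited, 69.8% of all 9488 genes were at least 2-fold lower in FuOXP NP and 2.34% at least 2-fold higher. For the other settings the share over all genes is not given, so these recounts do not set the members apart from other genes. With no filter the median gene is at 0, so values equal those as deposited. The Ube2 median of 0.12 became -1.32 as deposited, -0.39 rescaled and -0.86 with no filter. The Usp median of -0.06 became -1.50, -0.53 and -1.24 in the same order, and -0.30 without overlaps, -0.91 with 20 reads or more and -0.29 above 0 in both. The gap of 0.18 became 0.91 with 20 reads or more. Of role lists of 3 or more members, 4 had a median above 0, against 0 as deposited, 1 rescaled, 1 with no filter, 0 at 5 TPM or more, 2 without overlaps and 0 with 20 reads or more. Pathway lists above 0 numbered 4, against 0 as deposited and 0 with no filter. Named members above 0 numbered 24, against 2 as deposited, 2 with no filter, 8 at 5 TPM or more and 4 with 20 reads or more. As deposited and with no filter, most of the named members above 0 thus turned below it. Among them were Ube2d2a (-0.079), Ube2w (-0.11), Usp22 (-0.23) and Usp5 (-0.042), which were past 2-fold on the higher side relative to the median gene. Without the 20 most abundant entries, Ube2 genes made up 0.0535% in FuOXP NP and 0.0667% in Empty NP, and Usp genes 0.0919% and 0.135%. The Ube2 shares again leave out Ube2c, and the Usp shares Usp18. Apart from alternatives that drop members or genes, or the centring, the cause of these shifts was not tested. Most members rest on under 20 reads, which limits what could be told apart.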
